A study of Mus musculus with 6 samples.

Results

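The genes described here are 10 mouse genes of antigen presentation by MHC class II: the class II chains H2-Aa, H2-Ab1 and H2-Eb1, the peptide exchange factor chains H2-DMa and H2-DMb1, the invariant chain Cd74, the class II transactivator Ciita, and the co-stimulatory molecules Cd80, Cd86 and Cd40. Every probe that the array files name for them was taken, which gave 17 of 41174 non-control probes and 10 of 27827 gene names. That rule uses gene names alone and no measured value.

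Total RNA of proliferating satellite cells, the muscle stem cells, from skeletal muscle of female mice was hybridised to 6 single-colour Agilent arrays. The Magic-F1 group held 3 samples labelled Magic-F1+/+, with titles that carry the word Omo, and the control group held 3 samples with titles that carry MLC3F, a word the labels leave unexplained. Magic-F1 is an engineered ligand built from parts of hepatocyte growth factor that activates the receptor MET. The sources used here do not give the promoter of the transgene, the strain or age of the mice, or any allele that both groups share. The design text speaks of biological triplicates but names no animals, so p-values measure the spread between these samples only.

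Class II molecules sit on macrophages, dendritic cells and B cells and show peptides from the endosome to helper T cells. The alpha and beta chains are built with the invariant chain, which blocks the groove until endosomal proteases trim it, and H2-DM then exchanges the last invariant chain fragment for a peptide. Ciita drives these genes together through proteins bound to the X and Y boxes of their promoters, and Cd80, Cd86 and Cd40 give or receive the signals that accompany the peptide. Skeletal muscle cells at rest are known to carry little class II.

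Magic-F1 samples had much more H2-DMb1 RNA than control samples, at 33.3-fold by the brighter of its probes, and somewhat more H2-DMa, at 1.85-fold, and Cd74, at 1.63-fold. The classical class II chains did not move together: H2-Aa was higher but close to background, H2-Eb1 was lower, and the probes of H2-Ab1 were called in opposite directions. Cd80, also dim, rose on both of its probes, Cd86 rose on 1 of 2, and Cd40 fell 5.26-fold. The sizes of the Cd80 and Cd86 rises depended on the background correction. Ciita could not be tested, because its only probe was above background on 2 Magic-F1 arrays and on 0 control arrays. In such bulk RNA, fewer cells of a type and less RNA per cell cannot be told apart.

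Levels are log2 values of the background-subtracted signal minus the array's 75th percentile, so 0 is that percentile itself, and a difference of 1 is a change of 2-fold. Only probes that Feature Extraction flagged well above background throughout the 3 arrays of either group were tested. Of the 17 probes 15 were tested, and limma with Benjamini-Hochberg adjustment over all 21190 tested probes called 10 higher and 4 lower in Magic-F1 at 0.05 and left 1 uncalled. Both H2-Aa probes and A_51_P418295 of Cd80 passed this filter through the Magic-F1 arrays alone, where they were high. With only probes above background on all 6 arrays, 7 were called higher and 4 lower, against 7372 and 8672 over the whole array. Calls were common on the whole array: 41.3% of the tested probes were called higher and 46.5% lower, so a call by itself says little about these genes. The split was 8745 higher and 9847 lower, and with arrays scaled to the spiked-in transcripts it was 11108 higher and 7220 lower, with a median change of 0.36, while all 14 called member probes kept their direction and call. The 3 Magic-F1 and 3 control values did not overlap for 14 of the 15 tested probes, against 89.1% of all tested probes. The median change of the 15 probes, those that passed through Magic-F1 alone included, was 0.89 on the log2 scale, against −0.10 for all tested probes.

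Facts about the whole set of arrays bear on every value. The arrays' 75th percentiles of signal were 341 to 356 in Magic-F1 and 275 to 292 in control, 49.2% to 52.0% of spots were well above background, 0 were saturated, and the arrays' number limits the precision. Slide 1 carried the arrays numbered 1 and 3 of each group and slide 2 those numbered 2. All 14 called probes had the sign of their change on each slide. Their groups did not overlap, so this had to hold and is no separate check. RNA of satellite cell and myoblast markers was lower in Magic-F1: 7 of 8 were tested and 7 were lower, their summed linear signal was 58.6 to 60.02 in Magic-F1 against 608 to 641 in control, Pax7 was above background on 0 Magic-F1 arrays and Myf5 on 0 of the 6 arrays. All 12 macrophage markers were higher in Magic-F1, with summed signals of 1111 to 1153 in Magic-F1 against 79.0 to 82.4 in control. Of these Mrc1 was above background on 0 control arrays, with a fitted change of 4.27, or 0.59 with the normexp background model.

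**Figure D1:**
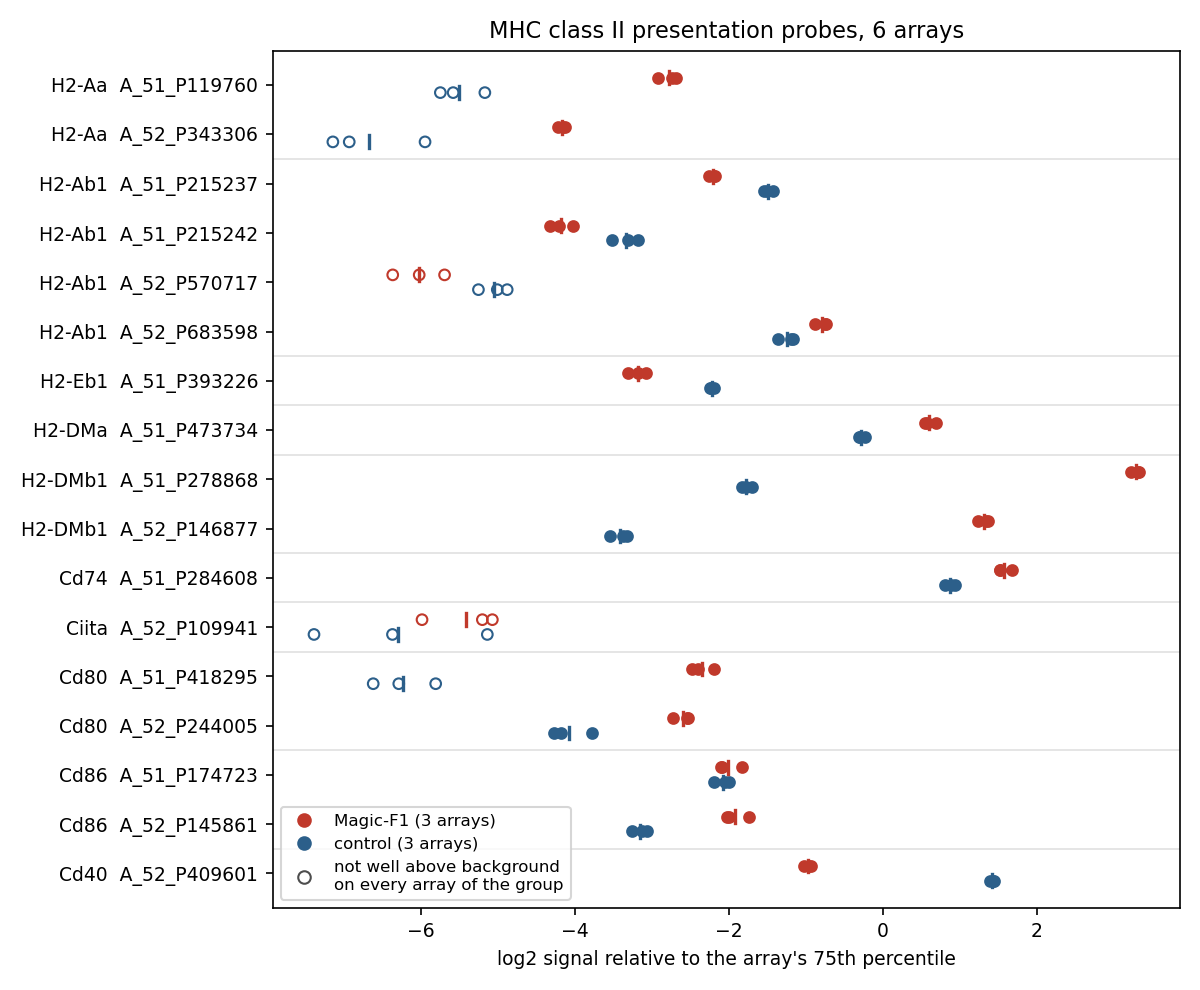
Level of each of the 17 probes on every array, as log2 signal relative to the array's 75th percentile, with Magic-F1 in red above control in blue and a tick at each group mean. Open circles mark a group that was not well above background on all of its arrays. H2-DMb1 shows the widest gaps between groups among probes bright in Magic-F1, while H2-Ab1 probes lie apart in both directions and the Ciita values of the groups overlap.

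H2-Aa encodes the alpha chain of the I-A molecule. Its probe A_51_P119760, at chr17:34420627-34420686 on the minus strand (all probe positions are on mm9), is printed here beside 3 probes of H2-Ab1 and H2-Eb1, because it rose where those fell. The brightest H2-Ab1 probe, A_52_P683598, is not among them and rose by 0.45.
H2-Aa A_51_P119760: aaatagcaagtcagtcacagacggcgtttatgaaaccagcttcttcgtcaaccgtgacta
H2-Ab1 A_51_P215242: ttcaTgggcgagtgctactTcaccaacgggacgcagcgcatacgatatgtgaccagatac
H2-Ab1 A_51_P215237: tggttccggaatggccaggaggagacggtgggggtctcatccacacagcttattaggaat
H2-Eb1 A_51_P393226: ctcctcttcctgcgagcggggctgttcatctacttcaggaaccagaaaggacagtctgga
Each is a 60-base probe from the files, written 5′ to 3′, and the 2 capitals are explained with H2-Ab1.

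The level of H2-Aa at A_51_P119760 was −2.74, −2.92 and −2.69 in the Magic-F1 samples, against −5.58, −5.75 and −5.17 in the control samples. All Magic-F1 values lay above all control values, but only 1 control array was well above background. The change was 2.72 ± 0.16 on the log2 scale (SE, limma adjusted p = 7.91e-06), and with the normexp background model it was 0.53. The other H2-Aa probe, A_52_P343306 at chr17:34421285-34421344, had levels of −4.13, −4.22 and −4.15 in Magic-F1 against −6.93, −7.14 and −5.95 in control, where no array showed it well above background. That gave a level at least 1.76-fold higher in Magic-F1 (fitted change 2.50 ± 0.31 SE, adjusted p = 0.000319 by limma), and the call was lost with normexp, at 0.10 and an adjusted p of 0.0960. A bound of this kind sets the bright group's mean against the higher of the dim probe's own signal and the lowest signal called well above background on each array. It is a difference of means and takes no account of the spread between samples.

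H2-Ab1 encodes the beta chain that pairs with the H2-Aa product. Its probe A_51_P215237, at chr17:34404388-34404447 on the plus strand and printed on each array in 10 spots, had levels of −2.25, −2.17 and −2.19 in Magic-F1 against −1.43, −1.50 and −1.55 in control. Every Magic-F1 value was below every control value. The spots of this probe within an array, a technical spread only, had an SD of 0.081 to 0.102 in Magic-F1 and 0.062 to 0.078 in control. The level fell by 0.71 ± 0.05 on the log2 scale (SE, limma adjusted p = 2.44e-05). The probe A_51_P215242, at chr17:34401723-34401782, gave −4.20, −4.03 and −4.32 in Magic-F1 against −3.17, −3.31 and −3.52 in control, and fell by 0.85 ± 0.12 (SE, limma adjusted p = 0.00054). The probe A_52_P683598, which lies farther 3′ at chr17:34406059-34406118, ran the other way, with −0.89, −0.75 and −0.74 in Magic-F1 against −1.17, −1.36 and −1.19 in control. There the level rose by 0.45 ± 0.07 (SE, limma adjusted p = 0.00131), again without overlap between the groups. The direction of H2-Ab1 therefore depended on the probe, and no single change is given for the gene.

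The remaining H2-Ab1 probe, A_52_P570717, has no position in the files and was not tested, since it was well above background on 0 Magic-F1 arrays and 1 control array. Its levels were −6.02, −5.69 and −6.37 in Magic-F1 against −4.88, −5.25 and −5.01 in control. Its last 31 bases are the same stretch as the first 31 of A_51_P215242 but for 2 bases, which are written in capitals.
A_52_P570717, last 31 bases: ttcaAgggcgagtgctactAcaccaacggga
A_51_P215242, first 31 bases: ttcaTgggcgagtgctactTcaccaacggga
Counted from the 5′ end of the shared stretch, with the base of the mapped probe first, the differences are T5A and T20A. Both probes of this stretch were lower in every Magic-F1 sample than in every control sample.

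H2-Eb1 encodes the beta chain of the I-E molecule. Its only probe, A_51_P393226, mapped to an interval of 462 bases at chr17:34452050-34452511, longer than the probe itself. The level was −3.31, −3.07 and −3.18 in Magic-F1 against −2.24, −2.20 and −2.23 in control, and the groups did not overlap. H2-Eb1 fell by 0.96 ± 0.07 on the log2 scale, or 1.95-fold (SE, limma adjusted p = 2.42e-05), and by 0.54 with normexp.

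H2-DMa and H2-DMb1 encode the alpha and beta chains of H2-DM, which removes the invariant chain fragment from class II and edits the bound peptides. H2-DMb1 had the 2 largest changes of the 15 tested probes. The sequence of its probe A_52_P146877, at chr17:34294265-34294324, is shown because the files tie it also to accessions of the neighbouring paralog H2-DMb2.
H2-DMb1 A_52_P146877: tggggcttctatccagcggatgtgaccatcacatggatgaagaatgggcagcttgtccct
This probe read 1.24, 1.37 and 1.34 in Magic-F1 against −3.38, −3.32 and −3.54 in control, with a change of 4.73 ± 0.07 (SE, limma adjusted p = 5.06e-08) and of 3.14 with normexp. The probe A_51_P278868, at chr17:34297109-34297168, read 3.22, 3.32 and 3.32 in Magic-F1 against −1.83, −1.78 and −1.70 in control. Its processed signals were 3325, 3466 and 3401 in Magic-F1 against 81.9, 81.1 and 84.6 in control, all well above background. The change was 5.06 ± 0.06 (SE, limma adjusted p = 2.45e-08), which is 33.3-fold, and it was 5.04 on slide 1, 5.10 on slide 2 and 4.38 with normexp. The probe made for H2-DMb2 was above background on 0 of the 6 arrays, and its best match to A_52_P146877 was 21 of 52 bases. That match compares probe with probe and does not show how well H2-DMb2 RNA would bind A_52_P146877. RNA of H2-DMb2 that binds A_52_P146877 cannot be told apart from that of H2-DMb1.

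H2-DMa changed less. Its probe A_51_P473734, mapped at chr17:34274300-34274863, read 0.58, 0.55 and 0.69 in Magic-F1 against −0.23, −0.30 and −0.30 in control, with no overlap. The change was 0.89 ± 0.06 on the log2 scale, or 1.85-fold (SE, limma adjusted p = 1.15e-05), and 0.81 with normexp. The 95% interval of the change ran from 0.75 to 1.02 for H2-DMa and from 4.92 to 5.20 for the brighter H2-DMb1 probe, so the chains of 1 heterodimer changed by unequal amounts.

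Cd74 encodes the invariant chain, which also serves as a surface receptor for the cytokine MIF. Its probe A_51_P284608 read 1.52, 1.52 and 1.68 in Magic-F1 against 0.81, 0.93 and 0.88 in control. The groups did not overlap, and Cd74 rose by 0.70 ± 0.06 on the log2 scale, or 1.63-fold (SE, limma adjusted p = 7.78e-05). Of the values given so far, those of Cd74 and H2-DMa depended least on the background model, with 0.64 for Cd74 under normexp.

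Ciita is the co-activator through which interferon gamma turns class II genes on. The levels at its probe A_52_P109941, at chr16:10526303-10526362, were −5.20, −5.07 and −5.99 in Magic-F1 against −6.37, −5.14 and −7.39 in control. These values overlap and sit at the edge of detection on every array, so no change in Ciita RNA was detectable here. Fitted without the filter on dim probes, the change was 0.88 with a limma adjusted p of 0.247.

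**Figure D2:**
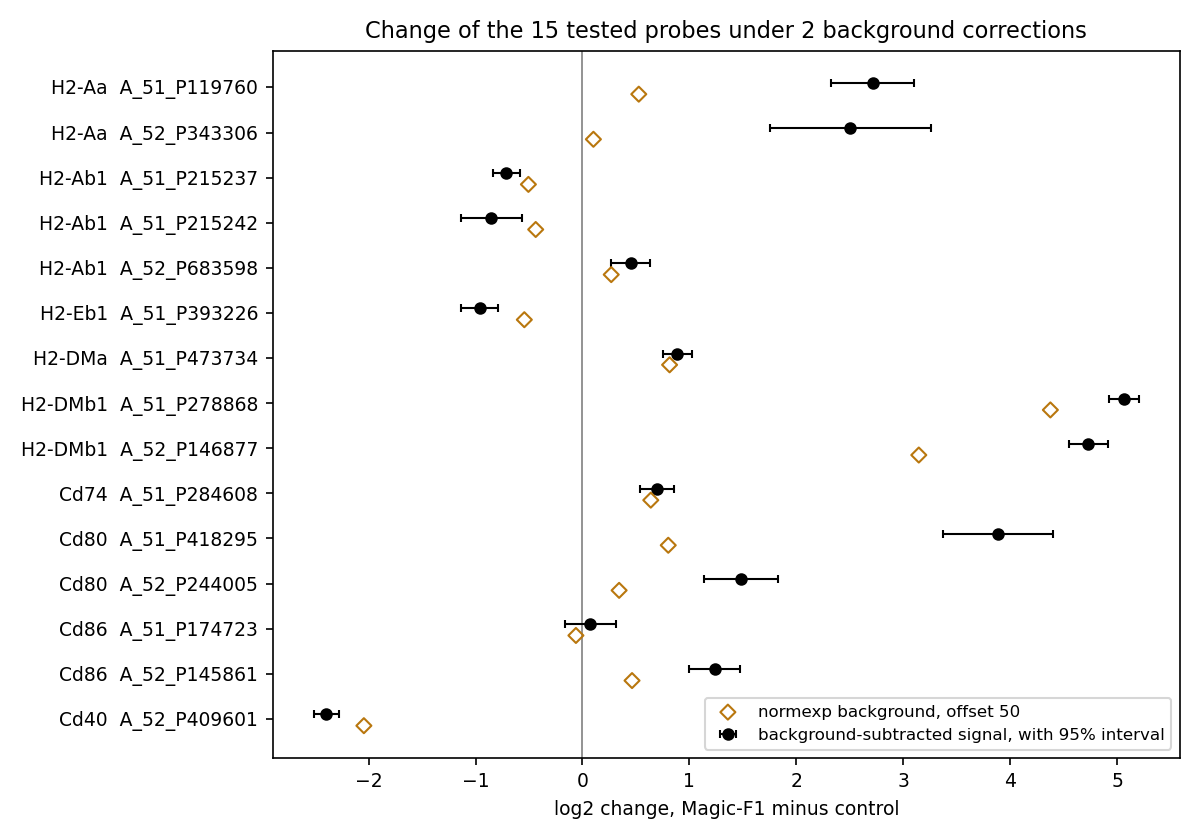
Log2 change, Magic-F1 minus control, of the 15 tested probes, from the background-subtracted signal with its 95% interval (black) and from the normexp background model (open diamonds). Several dim probes move far between the models, for example 2.72 against 0.53 at the brighter H2-Aa probe, whereas both H2-DMb1 probes stay above 3 and Cd40 stays below −2.

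Cd80 and Cd86, which bind Cd28 and Ctla4 on T cells, were measured by 2 probes each. The probes that separate the behaviour of these 2 genes, with the probe of Cd40, have the following sequences.
Cd80 A_52_P244005: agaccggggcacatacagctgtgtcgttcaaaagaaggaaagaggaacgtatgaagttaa
Cd86 A_51_P174723: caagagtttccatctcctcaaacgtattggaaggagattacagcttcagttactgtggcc
Cd40 A_52_P409601: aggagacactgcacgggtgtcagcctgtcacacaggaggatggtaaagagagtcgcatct
At A_52_P244005, at chr16:38474174-38474233, Cd80 read −2.54, −2.53 and −2.72 in Magic-F1 against −4.28, −4.18 and −3.78 in control. The groups did not overlap, and the change was 1.48 ± 0.14 (SE, limma adjusted p = 9.1e-05), or 0.34 with normexp. The probe A_51_P418295, farther 3′ at chr16:38495628-38495688, read −2.19, −2.40 and −2.48 in Magic-F1 against −6.29, −6.62 and −5.81 in control. No control array showed it well above background, so Cd80 was at least 6.18-fold higher there in Magic-F1 (fitted change 3.89 ± 0.21 SE, adjusted p = 5.74e-06 by limma), and the change was 0.80 with normexp.

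Cd86 gave a change at 1 of its probes only. At A_51_P174723, at chr16:36615381-36615440 on the minus strand, the levels were −2.10, −1.82 and −2.09 in Magic-F1 against −1.99, −2.19 and −2.05 in control. These groups overlap, and the change was 0.07 ± 0.10 with a 95% interval of −0.16 to 0.31 (limma adjusted p = 0.494). It was −0.061 with normexp, and it passed the threshold at 0.53 when arrays were scaled to the spiked-in transcripts. At A_52_P145861, which lies 10875 bases farther 3′ at chr16:36604506-36604565, the levels were −2.00, −1.74 and −2.02 in Magic-F1 against −3.06, −3.13 and −3.26 in control. There Cd86 rose by 1.23 ± 0.10, or 2.35-fold (SE, limma adjusted p = 3.31e-05), and by 0.46 with normexp.

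Cd40, the receptor through which helper T cells activate antigen-presenting cells, was the most strongly lowered of the 10 genes. Its only probe, A_52_P409601 at chr2:164896301-164896360, was printed in 10 spots. The levels were −1.03, −0.93 and −0.96 in Magic-F1 against 1.39, 1.44 and 1.44 in control. The groups did not overlap. The spots of this probe within an array, a technical spread only, had an SD of 0.028 to 0.088. Cd40 fell by 2.39 ± 0.05 on the log2 scale, or 5.26-fold (SE, limma adjusted p = 1e-07), and by 2.04 with normexp. Cd40 is also a member of the TNF receptor superfamily.

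The farther 3′ a probe lay in these genes, the higher its change was. In all 5 members with 2 or more mapped and tested probes, the 3′-most probe had the higher change: by 2.40 in Cd80, 1.30 in H2-Ab1, 1.16 in Cd86, 0.33 in H2-DMb1 and 0.21 in H2-Aa on the log2 scale. This comparison was chosen after the values were seen. The arrays as a whole moved the same way: of 4671 other genes with tested probes at least 60 bases apart, 72.6% had the higher change at the 3′-most probe, with a median difference of 0.27. On the arrays themselves, the median of the 3′-most minus the 5′-most level was 1.30, 1.30 and 1.34 in Magic-F1 against 0.93, 0.93 and 0.97 in control. With normexp the share was 70.9% and all 5 members kept the order. The part of this shift in the results for H2-Ab1, Cd80 and Cd86 was not tested.

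**Figure D3:**
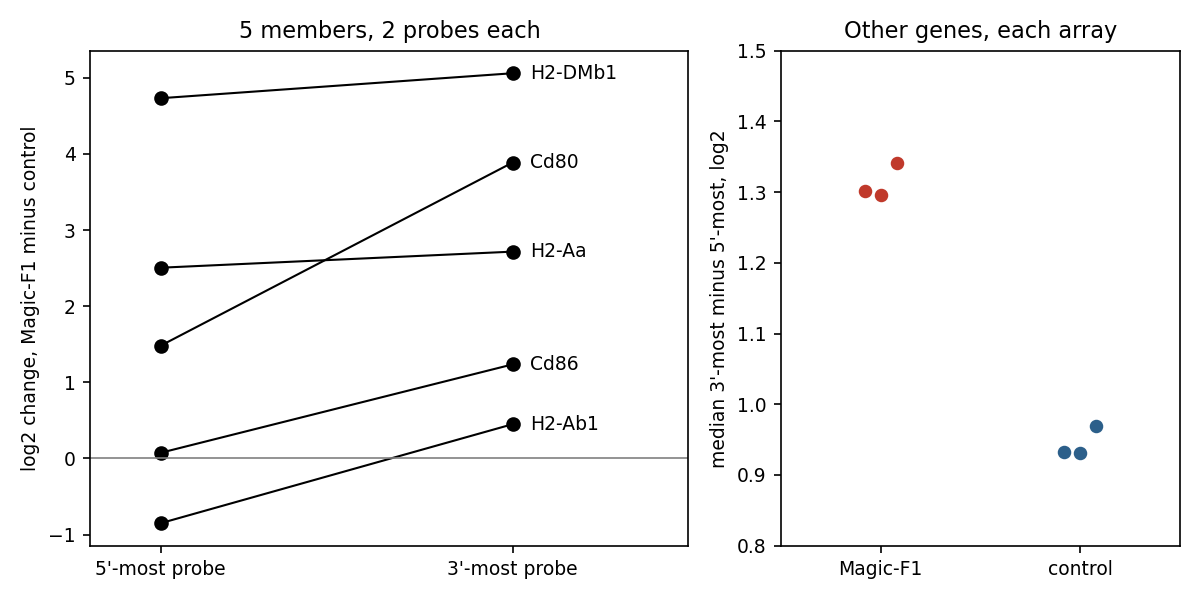
Left, log2 change (Magic-F1 minus control) at the 5′-most and the 3′-most tested probe of the 5 members with several mapped probes. All 5 lines go up, and H2-Ab1 crosses 0. Right, median over 4671 other genes of the 3′-most minus the 5′-most probe level (log2) on each array, where the 3 Magic-F1 arrays lie at 1.30 to 1.34 and the 3 control arrays at 0.93 to 0.97.

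Promoters of 5 members were found in the RefSeq table (GRCm38.p6): H2-Aa, H2-Eb1, H2-DMa, H2-DMb1 and Cd80. They were searched from 250 bases before the start for TGATTGG, the Y box, and ACNGATG, the core of the X box, on both strands (CCAATCA and CATCNGT), which do not overlap in these promoters. H2-Aa, H2-Eb1 and H2-DMb1 held both. Their 110 bases before the start are shown at GRCm38.p6 coordinates, 5′ to 3′ on the gene's strand, with the motifs in capitals, because 2 of these genes rose and the other fell.
H2-DMb1 chr17:34153081-34153190 (+): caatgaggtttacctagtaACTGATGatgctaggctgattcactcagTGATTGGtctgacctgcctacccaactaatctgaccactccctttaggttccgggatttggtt
H2-Aa chr17:34287824-34287933 (−): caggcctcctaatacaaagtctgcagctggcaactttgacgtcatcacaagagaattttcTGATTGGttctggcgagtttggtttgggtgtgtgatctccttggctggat
H2-Eb1 chr17:34305757-34305866 (+): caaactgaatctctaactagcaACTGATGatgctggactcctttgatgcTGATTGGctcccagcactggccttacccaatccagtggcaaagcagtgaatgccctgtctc
The Y box began 63 bases before the start in H2-DMb1, 50 in H2-Aa and 61 in H2-Eb1. The X box core preceded it by 21 bases in H2-DMb1 and by 20 in H2-Eb1, while in H2-Aa the only match lay on the other strand, 175 bases upstream of the Y box and outside the stretch shown. H2-DMb1 and H2-Eb1 thus held the same 2 words at nearly the same distance, and H2-DMb1 rose 33.3-fold where H2-Eb1 fell 1.95-fold. The Y box was in 7.23% of the 32851 mouse promoters of that table, and the X box core was in 8.31% and both were in 0.588%. In the promoters of H2-DMa and Cd80 neither string was in this window. A match is a match of letters and does not show that a factor binds. A box spelled otherwise is missed. The lack of a nearby string in H2-Aa therefore does not show that it lacks an X box near its Y box.

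The rest of the class II pathway was followed in 7 lists with 57 genes beside the members, all of them on the array, each represented by the brightest of its tested probes. Of the 43 tested genes 33 were higher in Magic-F1, 7 lower and 3 not called, with a median change of 1.54 on the log2 scale. The gene at that median was H2-Ob. H2-Ob, Cd28, Cd4 and Cd274 passed the filter through the Magic-F1 arrays alone, where they were high, and Icos through the control arrays alone. With only probes above background on all 6 arrays, 29 genes were called higher and 6 lower. Over all 14908 tested genes, 40.6% were higher and 47.7% lower, and the median change was −0.15. In class II turnover every tested gene was higher.

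Endosomal proteolysis and reduction had 8 of 9 genes higher and 1 lower. Ctss, the cathepsin that makes the last cuts in the invariant chain, read 8.62, 8.65 and 8.65 in Magic-F1 against 4.78, 4.75 and 4.86 in control, with a change of 3.84 ± 0.05 (SE, limma adjusted p = 3.09e-08). Lgmn, the asparaginyl endopeptidase legumain, rose by 2.57 ± 0.10, and Ifi30, the thiol reductase that opens disulphides of antigens, by 2.47 ± 0.05. Ctsd, an aspartic protease of the lysosome, rose by 2.21 ± 0.05, with 3.48 at its other probe. Ctsh, an aminopeptidase, was the lower gene, with a fall of 1.02 ± 0.07 (limma adjusted p = 1.41e-05).

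All 3 genes of class II turnover rose. Cd83, which protects surface class II from ubiquitination, read 4.55, 4.62 and 4.66 in Magic-F1 against −1.52, −1.48 and −1.43 in control, a change of 6.09 ± 0.05 (SE, limma adjusted p = 2.03e-08) and of 5.41 with normexp. Marchf1, the ligase that ubiquitinates class II and Cd86, read 3.85, 3.80 and 3.91 in Magic-F1 against 0.37, 0.38 and 0.52 in control, a change of 3.43 ± 0.06 (SE, limma adjusted p = 7.12e-08). Marchf8, a related ligase, rose by 0.91 ± 0.05. Genes that act on class II in opposite ways, Cd83 and Marchf1, were thus both higher in Magic-F1.

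Of the factors that switch class II genes on, 5 of 9 tested were higher and 3 lower. Irf8, a myeloid and B cell factor that acts on a Ciita promoter, read 5.76, 5.79 and 5.82 in Magic-F1 against 0.84, 0.84 and 0.87 in control, a change of 4.94 ± 0.04 (SE, limma adjusted p = 2.03e-08). Spi1, which encodes the myeloid factor PU.1, rose by 3.31 ± 0.05. Of the proteins bound to the Y box, Nfya rose by 2.28 ± 0.05, with 0.86 at its other probe, while Nfyb fell by 0.81 ± 0.08, with −0.20 at its other probe, and Nfyc by 0.65 ± 0.13. Of the RFX complex on the X box, Rfxank fell by 1.20 ± 0.06, Rfxap rose by 0.26 ± 0.06, and Rfx5 was not tested. Creb1 had a change of 0.67 at the probe used and of −1.89 and −1.76 at its other probes, so its direction is not given. Irf1, an interferon-induced factor, had a change of 0.01 ± 0.04 (limma adjusted p = 0.814).

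In the interferon gamma and Il10 list 6 of 9 tested genes were higher and 2 lower. Il10ra, the ligand-binding chain of the Il10 receptor, rose by 5.59 ± 0.06 (SE, limma adjusted p = 2.45e-08), and its partner Il10rb by 3.04 ± 0.06. The interferon gamma receptor chains Ifngr2 and Ifngr1 rose by 2.19 ± 0.06 and 1.79 ± 0.04. Ifng itself was not tested, with 0 Magic-F1 arrays and 1 control array above background. The lower genes were Socs1, a feedback inhibitor of this pathway, which fell by 1.04 ± 0.07, and the kinase Jak2, which fell by 0.55 ± 0.07. Stat3, which acts downstream of the Il10 receptor, changed by 0.16 ± 0.10 (limma adjusted p = 0.163).

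**Figure D4:**
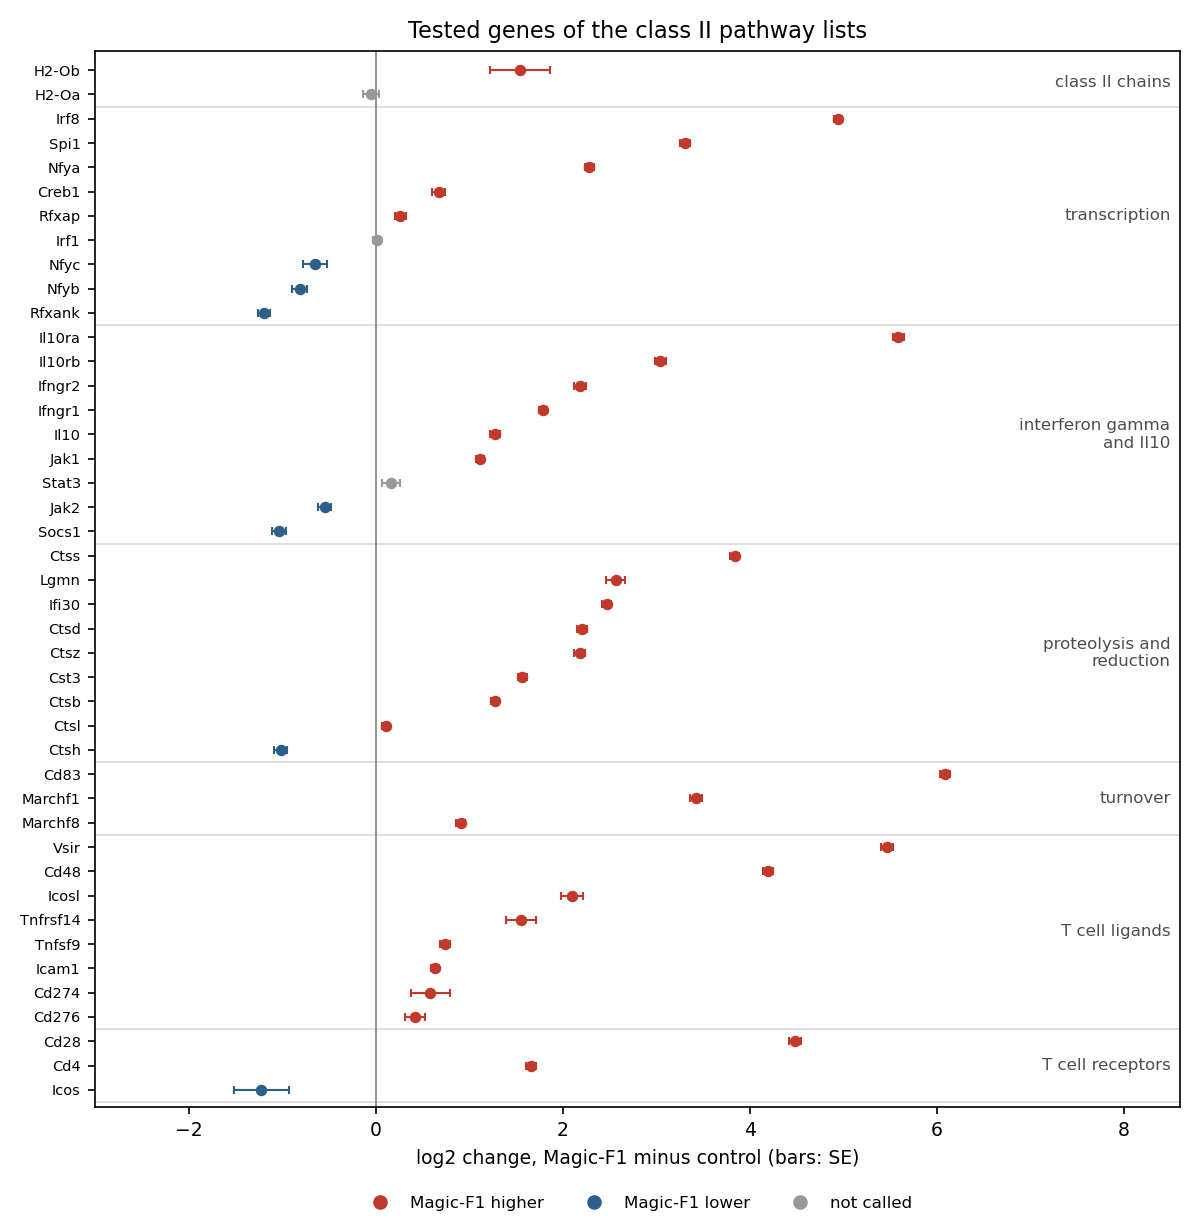
Log2 change (Magic-F1 minus control) with its SE of the 43 tested genes of the class II pathway lists, red where called higher, blue where called lower and grey where not called. Cd83 lies at 6.09 and Icos, dim in Magic-F1, at −1.22, and the proteolysis, turnover and T cell ligand lists lie mostly to the right of 0.

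Among the other class II chains, H2-Ob, the beta chain of the H2-DM inhibitor H2-O, had a change of 1.54 ± 0.32 (SE, limma adjusted p = 0.0042). For H2-Ob the change was 0.02 with normexp, where the call was lost (limma adjusted p = 0.765). Its partner H2-Oa changed by −0.05 ± 0.09 (limma adjusted p = 0.573). The remaining chains H2-Ea, H2-Eb2 and H2-DMb2 were not well above background on any array.

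All 8 tested ligands of T cell co-stimulation and co-inhibition were called higher in Magic-F1, and 4 were not tested. Among the 8, Cd274, which encodes PD-L1, was above background on 0 control arrays, with a bound of 1.31-fold. Its fitted change of 0.59 had a 95% interval of 0.07 to 1.10, which reaches below that bound. With normexp Cd274 turned to −0.06 and lost its call (limma adjusted p = 0.402). Vsir, which encodes the inhibitory molecule VISTA, rose by 5.47 ± 0.06 (SE, limma adjusted p = 2.57e-08), and Cd48, an adhesion ligand, by 4.20 ± 0.06. Icosl, the ligand of Icos, rose by 2.10 ± 0.11, and by 0.50 with normexp. Tnfrsf14, which binds the inhibitory receptor Btla, rose by 1.55 ± 0.16. Of the 7 T cell surface molecules in the last list 3 were tested. Cd28, the receptor of Cd80 and Cd86, had a change of 4.49 ± 0.06, or 1.91 with normexp, and was above background on 1 control array. Cd4 was above background on 0 control arrays and was at least 1.85-fold higher in Magic-F1 (fitted change 1.66 ± 0.05 SE, adjusted p = 5.95e-07 by limma), a call lost with normexp at 0.03 and an adjusted p of 0.541. Icos, above background on 1 Magic-F1 array and 3 control arrays, had a change of −1.22 ± 0.29, and of −0.36 with normexp. Ctla4, Pdcd1, Cd40lg and Lag3 were not well above background on any array.

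The cell types that carry class II differed between the groups by their marker lists, and the part of this in the results was not tested. Of 10 dendritic cell markers 5 were tested: Itgax, which macrophages also carry, rose by 9.37 at a probe above background on 1 control array (6.46 with normexp), with 3.74 at its other probe. Ccr7 was above background on 0 Magic-F1 arrays and was at least 1.65-fold lower there (−0.50 with normexp), Zbtb46 fell by 1.30 with 1.17 at its other probe, and Batf3 and Clec10a were not called. Of the 5 untested dendritic markers, Xcr1 was above background on 2 Magic-F1 and 2 control arrays, and Flt3, Clec9a, Cd209a and Siglech on 0 arrays. The summed signal of the list was 24.99 to 26.4 in Magic-F1 against 3.42 to 3.52 in control, and without Itgax it was 3.06 to 3.39 in Magic-F1 against 3.39 to 3.48 in control, a sum added after the values were seen. Of 8 B cell markers 4 were tested and 3 were lower in Magic-F1, beside 47.7% of all tested genes. The list's summed signals were 0.519 to 0.571 in Magic-F1 against 0.894 to 0.995 in control. Most of this signal was that of Cd79b, with a change of −0.56. With arrays scaled to the spiked-in transcripts Cd79b changed by −0.10 and lost its call (limma adjusted p = 0.225). Pax5, Blk, Cr2 and Fcer2a were not well above background on any array. Of 7 T cell markers 4 were tested and 3 were lower, with sums of 0.455 to 0.516 in Magic-F1 against 0.857 to 0.978 in control. Most of that signal was Lck, with a change of −0.86. Neutrophil markers summed to 0.158 to 0.169 in Magic-F1 against 552 to 593 in control, and all 6 tested were lower. Endothelial markers had 1 of 5 tested higher and 4 lower, with sums of 0.228 to 0.255 in Magic-F1 against 7.51 to 7.89 in control, and 6 of 6 tested adipocyte markers were higher, with sums of 424 to 452 in Magic-F1 against 57.9 to 64.7 in control. The higher endothelial marker was Kdr, with a change of 0.64. Its change was −0.03 with normexp, where its call was lost (limma adjusted p = 0.529). Some markers passed the filter through 1 group alone, where they were high. Among them were Mrc1 and Retn in Magic-F1, and S100a9, Camp, Ngp and Ltf in control.

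**Figure D5:**
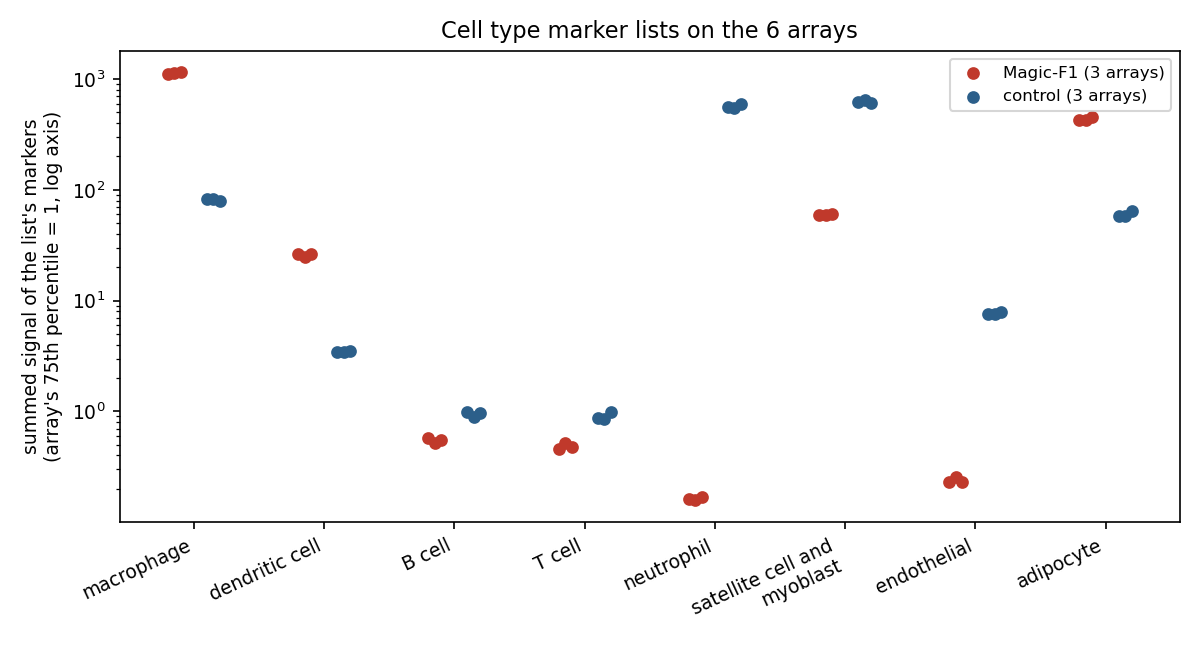
Summed linear signal of each marker list on the 6 arrays, with the array's 75th percentile as 1, on a log axis. Magic-F1 (red) lies above control (blue) for the macrophage, dendritic cell and adipocyte lists, in the dendritic cell list through Itgax, and below it for the other 5 lists.

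The genes whose pattern over the 6 arrays lay nearest to a member were found by the Euclidean distance between values centred on each gene's mean, among 12826 tested genes. For Cd40 these were Prr8 at 0.0624, Chrnd, a subunit of the muscle acetylcholine receptor, at 0.0668, and Bhlhb9 at 0.0819. For H2-Ab1, by its brightest probe, they were Atad2b at 0.0719, Arhgap44 at 0.109 and Phf13 at 0.124. For Cd86, by its probe that was not called, they were Kmt5b at 0.0998, Sugct at 0.144 and Sycn at 0.153. Ciita had no tested probe and no neighbours. With a single contrast between 2 groups, such nearness mostly restates the size and direction of the change.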

How the data were processed

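Total RNA of 3 Magic-F1 and 3 control samples was run on single-colour Agilent arrays of 45018 spots with the dye Cy3. The deposited scanner files hold, per the file headers, processed intensities from Agilent Feature Extraction 10.5.1.1 that are background-subtracted and flagged but not normalized between arrays. The authors also deposited a table with a log2 value per spot, which equals the log2 processed signal within 5e-09 on 4 arrays and differs from it on both arrays numbered 1 (SD 0.456 for Magic-F1 and 0.472 for control).

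Groups came from the labels. Only non-control spots were kept, outlier spots (59 to 89 on an array) became missing values, and the 75th percentile of the array was subtracted from log2 signals. Spots of a probe were averaged. Tests used limma 3.58.1 under R 4.3.3 (lmFit, then eBayes, with no term but group), 2-sided at 0.05, and were checked on simulated data. The median residual SD was 0.093. The normexp model used an offset of 50 on the mean and background signals.

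Members were matched by the gene name in the files. Other probes were named through RefSeq (GRCm38.p6), which matched 25097 of 41174 probes and 13 of 17 member probes. Coordinates of probes were taken from the array files (mm9). Whether a probe lies in an exon or a UTR was not analysed here. The members and lists were chosen with earlier results of these data known. All member probes are named, and up to 4 genes per pathway list, with called ones before others and larger changes before smaller. Some genes behind counts of 5 or fewer, and Cd274, are named beyond that, after their values were seen. A gene of the transcription list is not reported here. Alternatives were other background corrections, scalings, filters, variance models, slide and replicate terms, the deposited table and leaving out each array.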

Additional observations from a re-analysis of the deposited data

How the results depend on the processing

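The limits here are 3 samples a group, dim probes whose fold depends on the background correction, and a broad difference between the groups in cell type markers. With normexp 7 of 15 tested probes had a fold over 1.5 times smaller (both of H2-Aa, both of H2-DMb1, both of Cd80 and A_52_P145861 of Cd86), and A_52_P343306 of H2-Aa lost its call at 0.10. That model adds an offset of 50 to every signal before the log, which by itself lowers the fold of dim probes. The share of the offset in these smaller folds was not tested. The count of member probes called stayed at 7 to 11 higher and 4 to 5 lower under all alternatives, and that of pathway genes at 29 to 36 higher and 5 to 8 lower.

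Cd86 at A_51_P174723 changed sign, at −0.061 with normexp and −0.072 on slide 1 alone, ranged from −0.017 (without the second Magic-F1 array) to 0.12 when each array was left out in turn, and passed the threshold at 0.53 (limma adjusted p = 0.00382) with spike-in scaling. That scaling moved the median of all tested probes to 0.36 and called 11108 higher and 7220 lower, against 8745 higher and 9847 lower in the fit reported. With it Jak2 and Nfyc lost their calls, and Irf1, Stat3 and H2-Oa gained one. The untested H2-Ab1 probe A_52_P570717 had −0.98 (limma adjusted p = 0.00806) without the filter. With a replicate block the counts were 10 higher and 4 lower probes, and 33 and 7 pathway genes, so it changed no count of these calls. Samples of the same number correlated in their deviations at −0.003, 0.108 and 0.069, so the numbers were not taken as pairs.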
